A study of Mus musculus with 4 samples.

Results

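The genes described here are the dual oxidases, their maturation factors and the NADPH oxidase subunits of mouse dorsal skin. Of 9 listed genes (Duox1, Duoxa1, Duox2, Duoxa2, Nox1, Nox4, Cybb, Cyba and Ncf1), 7 were read by 12 probe sets that carry a single gene symbol in the platform annotation, out of 45037 probe sets that are not controls. Duox2 and Nox1 had no such probe set and were not analysed here. The genes were chosen as a family on signals of these same arrays, with the bitransgenic against wild type differences known, so their values are a description, without a test. Messenger RNA was measured on Affymetrix Mouse 430 2.0 arrays in dorsal skin at postnatal day 16. There were 2 arrays of bitransgenic mice, which overexpress deltaNp63alpha, and 2 arrays of wild type mice, with 1 animal per array according to the labels (n = 2 per group throughout). DeltaNp63alpha is the p63 isoform of basal keratinocytes that lacks the amino-terminal transactivation domain. The labels name no promoter for the transgenes, and no strain, sex or litter.

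NADPH oxidases are membrane enzymes that pass electrons from NADPH to oxygen on the other side of a membrane. Cybb (also called NOX2), Nox1 and Nox4 are catalytic chains that need Cyba (p22phox) as a membrane partner, and in phagocytes Ncf1 (p47phox) brings the cytosolic subunits to Cybb when the cell is stimulated. The dual oxidases Duox1 and Duox2 bind calcium, release hydrogen peroxide at epithelial surfaces and the thyroid, and leave the endoplasmic reticulum only with their maturation factors Duoxa1 and Duoxa2. Keratinocytes of the epidermis are known to express Duox1.

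The 4 dual oxidase genes lie side by side on chromosome 2, each oxidase gene pointing away from its maturation factor. In the RefSeq promoter table (build GRCm38.p6, in which all 9 genes had an entry) the start sites of Duoxa1 and Duox1 are 1942 bases apart, and those of Duox2 and Duoxa2 are 673 bases apart. The windows of 250 bases before to 50 bases after the start are printed for Duox1 and Duoxa1, whose signals were both higher in bitransgenic skin, and for Duoxa2, the third gene of the cluster on the array, which was dim. Capitals mark CATG, the core of the half-site that proteins of the p53 family recognise, in Duox1 and Duoxa2, and GGGCGG, a GC box, in Duoxa1. The windows are chr2:122315422-122315721 (+ strand) for Duox1, chr2:122313681-122313980 (- strand) for Duoxa1 and chr2:122298650-122298949 (+ strand) for Duoxa2.
Duox1: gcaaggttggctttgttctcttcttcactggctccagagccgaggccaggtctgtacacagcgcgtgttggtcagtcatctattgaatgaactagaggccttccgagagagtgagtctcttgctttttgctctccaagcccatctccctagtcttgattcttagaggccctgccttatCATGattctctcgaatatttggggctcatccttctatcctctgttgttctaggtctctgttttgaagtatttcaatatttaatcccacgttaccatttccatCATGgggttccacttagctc
Duoxa1: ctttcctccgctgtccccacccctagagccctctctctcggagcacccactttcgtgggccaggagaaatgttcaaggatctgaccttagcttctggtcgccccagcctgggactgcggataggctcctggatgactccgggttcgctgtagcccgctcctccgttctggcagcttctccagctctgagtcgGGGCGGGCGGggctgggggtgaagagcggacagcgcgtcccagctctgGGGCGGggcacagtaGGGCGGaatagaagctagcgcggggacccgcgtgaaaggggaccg
Duoxa2: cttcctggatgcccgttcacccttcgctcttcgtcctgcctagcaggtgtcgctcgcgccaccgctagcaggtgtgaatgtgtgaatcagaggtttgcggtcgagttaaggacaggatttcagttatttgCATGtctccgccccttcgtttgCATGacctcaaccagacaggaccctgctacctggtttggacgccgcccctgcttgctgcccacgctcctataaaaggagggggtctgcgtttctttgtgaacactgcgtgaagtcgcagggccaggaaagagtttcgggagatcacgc

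The Duox1 window held CATG at positions -72 and 31, counted from the start site, and the Duoxa2 window held it at -120 and -98. The Duoxa1 window held none. CATG was present in 61.1% of 32817 promoter windows of this length, and 28.1% held it at 2 or more places. CATGNNNNNNCATG, a pair of such cores with the spacing of a full p53 family site, was found in none of the 9 windows and in 0.71% of all windows. GGGCGG, on either strand, had 4 matches in the Duoxa1 window, 2 of which overlap, and 2 in the Duoxa2 window on the opposite strand. It was present in 35.6% of all windows. The Duoxa1 window was 65.7% G and C with 22 CG pairs, and the Duox1 window 46.7% with 6, against medians of 52.7% and 7 over all windows. TTCNNNNGAA, the spacing read by STAT6, occurred once in the Duox1 window, at -67, and in 6.94% of all windows. TATAAA occurred in the Duoxa2 window at -30 and in 13.6% of all windows. TGANTCA is the AP-1 site (TGACTCA or TGAGTCA) with any base allowed at its centre. It matched in the Duoxa2 window at -168 and in the Cybb window at -139, and in 7.81% of all windows. The Duoxa2 match reads TGAATCA, which is not the AP-1 site itself, and the share of all windows counts such looser matches too. GAGGAA, the core read by PU.1 of myeloid cells, matched in the windows of Cybb, Nox1 and Duoxa1, and in 28.3% of all windows. All motifs were searched on both strands.

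Array signals are on a linear scale and were scaled by the authors to a common mean, and their median lay between 97.9 and 113.1. Of the 4 probe sets of Trp63, the gene of the transgene, 1451876_a_at read 10325 and 15247 in bitransgenic skin, against 206 and 838 in wild type skin. Probe set 1452027_a_at also separated the groups, while 1418158_at and 1459581_at overlapped. The keratins of the epidermis, Krt5, Krt14 and Krt10, were bright on all 4 arrays. Spike-in controls were brighter on replicate 1 of each group (1598 and 1528) than on replicate 2 (465 and 328), so values within each replicate number are given beside the differences. Each group had 1 array with high Xist and 1 with high Eif2s3y, a Y-linked gene. The arrays with high Xist were bitransgenic replicate 1 and wild type replicate 2. A difference within a replicate number thus sets an array with high Xist against one with high Eif2s3y, and is not matched on sex. Signals were compared as log2(signal + 16), and differences are bitransgenic minus wild type. Over all genes tested with limma, 98 of 13070 were higher and 206 lower at an adjusted p under 0.05.

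Duox1 and Duoxa1 were the members with the widest separation between the groups. Duox1, read by 1456877_at, had signals of 1828 and 975 in bitransgenic skin, against 109 and 93.4 in wild type skin. The groups did not overlap, and the lower bitransgenic signal was far above both wild type signals. The mean was 1402 ± 603 in bitransgenic and 101 ± 10.75 in wild type skin (SD), a log2 difference of 3.53 ± 0.39 (SE) or 11.6-fold. That difference was 3.89 within replicate number 1 and 3.18 within replicate number 2. It had rank 20 of 13070 when genes were ordered from the highest difference down.

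Duoxa1, the factor that lets Duox1 leave the endoplasmic reticulum, was read by 1460372_at and had signals of 3111 and 3397 in bitransgenic skin, against 694 and 902 in wild type skin. The 2 arrays of each group lay close together and the groups did not overlap. Its log2 difference was 2.02 ± 0.26 (SE), or 4.05-fold, with 2.14 within replicate number 1 and 1.89 within replicate number 2. The bitransgenic arrays were not ordered alike for the 2 genes. Replicate 1 had the higher Duox1 signal and replicate 2 the higher Duoxa1 signal.

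Duoxa2, the maturation factor of Duox2, read 46.4 and 45.4 in bitransgenic skin, against 35.7 and 42.0 in wild type skin. All 4 signals lay below the filter on dim probe sets, a signal of 57.0, so Duoxa2 did not enter the gene tests. Its log2 difference was 0.18 ± 0.43 (SE), with a 95% interval from -0.86 to 1.21, and it was 0.27 within replicate number 1 and 0.08 within replicate number 2. The groups did not overlap, but the lowest bitransgenic signal exceeded the highest wild type signal by less than the distance between the wild type arrays.

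**Figure D1:**
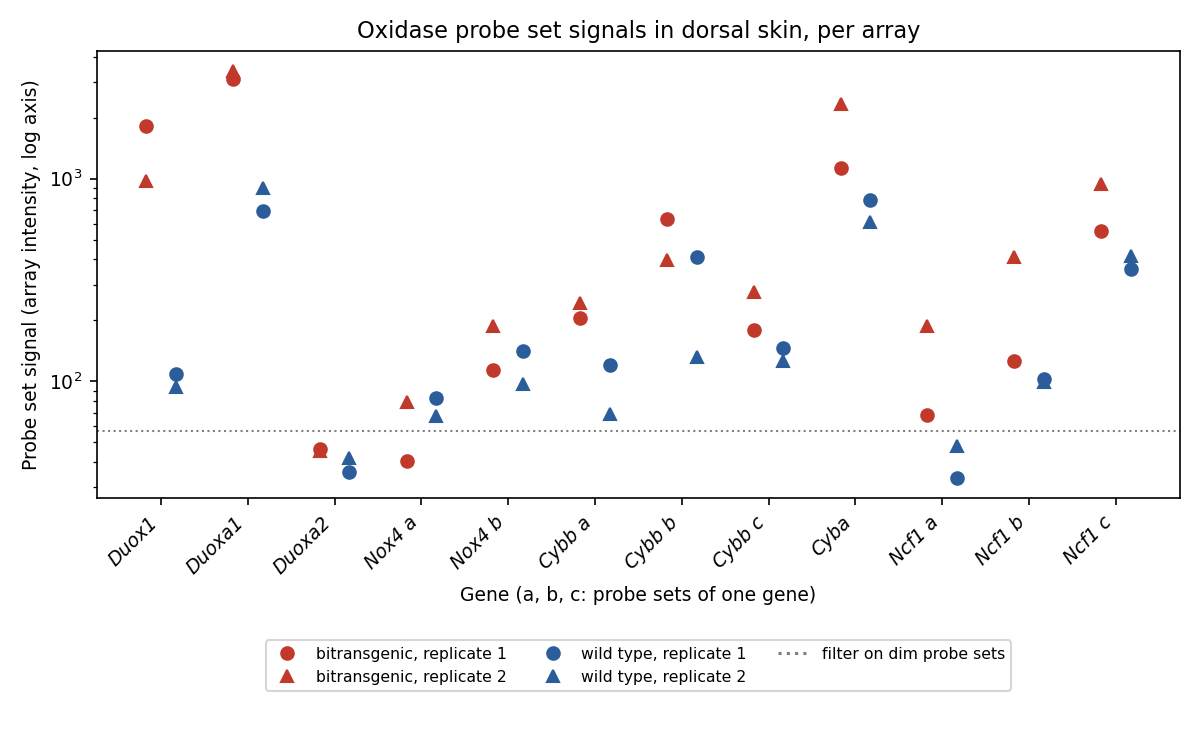
Signals of the 12 oxidase probe sets on a log axis, in array intensity units, with bitransgenic arrays in red and wild type arrays in blue, circles for replicate 1 and triangles for replicate 2. Duox1 lies at 1828 and 975 in bitransgenic skin, against 109 and 93.4 in wild type skin, and Duoxa2 lies below the dotted filter line at 57.0 on all 4 arrays.

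The genes that flank the cluster were read to see whether its neighbourhood differed as well. Of the 5 protein-coding genes on each side in RefSeq order, 5 were tested, 3 had no probe set of a single symbol and 2 lay below the filter. None of the 5 tested genes passed limma's threshold, and 0 had an unadjusted p under 0.05. Shf, an adaptor protein gene next to Duox1, read 290.0 and 279 in bitransgenic skin, against 314 and 248 in wild type skin (log2 difference 0.03 ± 0.31, SE). On the other side the adjacent gene, Sord, had no probe set of a single symbol, and Terb2, a meiosis gene beyond it, had a difference of 0.05 ± 0.40. B2m, the light chain of MHC class I, had the highest difference of the 5, 0.59 ± 0.27 (adjusted p = 0.354, limma), with signals of 17347 and 25491 in bitransgenic skin and 14380 and 13552 in wild type skin. Patl2 and Gatm, the gene of the enzyme for the first step of creatine synthesis, had differences of 0.22 and -0.50 with overlapping groups.

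**Figure D2:**
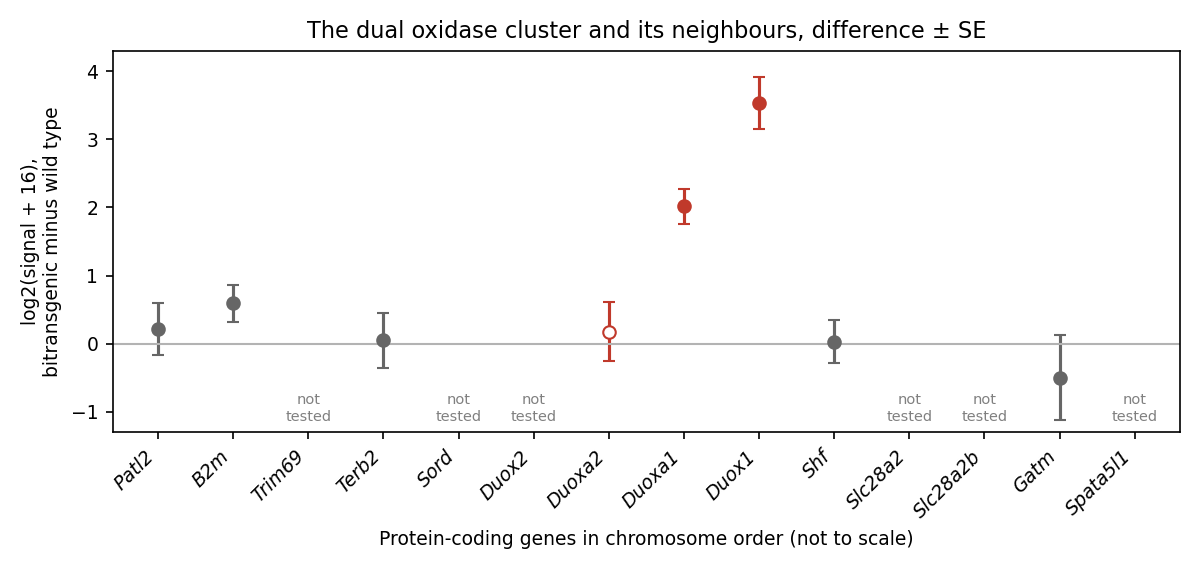
Differences (bitransgenic minus wild type) in log2(signal + 16), with SE bars, for the protein-coding genes at the dual oxidase cluster in chromosome order, with cluster genes in red and the dim Duoxa2 as an open circle. The nearest tested genes on the sides of Duox1 at 3.53 and Duoxa1 at 2.02 are Terb2 at 0.05 and Shf at 0.03. Sord and Duox2, which lie between Terb2 and Duoxa2, had no probe set of a single symbol.

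The catalytic chain Nox4, which is active without cytosolic partners, had 2 probe sets that overlapped between the groups. The brighter, 1451827_a_at, read 114 and 188 in bitransgenic skin, against 142 and 96.5 in wild type skin. Its log2 difference was 0.29 ± 0.46 (SE), with a 95% interval from -0.81 to 1.39, and its sign differed between replicate number 1 (-0.28) and replicate number 2 (0.86). The other, 1419161_a_at, read 40.6 and 78.8 in bitransgenic skin and 82.9 and 67.5 in wild type skin, with a difference of -0.31 ± 0.49 that was -0.81 within replicate number 1 and 0.18 within replicate number 2. The probe sets thus had opposite signs, each by less than its SE. Nox4 is known from fibroblasts, fat and endothelial cells. The summed signal of 7 fibroblast markers was 60095 and 78185 in bitransgenic skin, against 131471 and 115433 in wild type skin. That of 4 tested fat cell markers was 21600 and 28292, against 47060 and 46697 in wild type skin, while that of 6 endothelial markers overlapped between the groups (2679 and 3623 in bitransgenic, 3284 and 2648 in wild type skin). None of these 17 markers was called by limma, and 4 fibroblast, 4 fat cell and 1 endothelial marker had an unadjusted p under 0.05, all lower in bitransgenic skin. Over all genes tested, 6.91% were higher and 9.76% lower at that unadjusted threshold. The part of these cell types in the Nox4 signal was not tested. In whole skin, fewer cells of a type and less RNA per cell cannot be told apart.

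Cybb, the catalytic chain of the phagocyte oxidase, was higher on average in bitransgenic skin by all 3 of its probe sets. The brightest, 1436778_at, read 632 and 398 in bitransgenic skin, against 408 and 132 in wild type skin. These groups overlapped, since wild type replicate 1 exceeded bitransgenic replicate 2, and the log2 difference was 1.05 ± 0.55 (SE). Without wild type replicate 2 it was 0.29, and without wild type replicate 1 it was 1.81. Probe set 1422978_at read 206 and 243 in bitransgenic skin, against 121 and 68.8 in wild type skin, with a difference of 1.15 ± 0.44. Probe set 1436779_at read 178 and 276 in bitransgenic skin and 146 and 126 in wild type skin, with a difference of 0.65 ± 0.40. The groups did not overlap for these dimmer probe sets. Within replicate numbers 1 and 2 the differences were 0.61 and 1.49 for 1436778_at, 0.70 and 1.61 for 1422978_at, and 0.26 and 1.04 for 1436779_at, so each was larger within number 2. The 3 probe sets disagreed on the order of the bitransgenic arrays, with replicate 1 above replicate 2 for the brightest and below it for the other two. Cybb lies on the X chromosome, and the array with high Xist was the higher of its group in bitransgenic skin and the lower in wild type skin for 1436778_at. For 1422978_at and 1436779_at the array with high Xist was the lower of its group in both groups. The part of sex in the Cybb signal was not tested.

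Cyba, the membrane partner shared by Cybb, Nox1 and Nox4, read 1124 and 2334 in bitransgenic skin, against 783 and 615 in wild type skin. The groups did not overlap, and bitransgenic replicate 2 stood well above the other 3 arrays. The log2 difference was 1.21 ± 0.39 (SE), or 2.31-fold, and it was 0.51 within replicate number 1 and 1.90 within replicate number 2. Without bitransgenic replicate 2 it was 0.68, and without bitransgenic replicate 1 it was 1.73.

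Ncf1, the organiser of the phagocyte oxidase, was read by 3 probe sets whose groups did not overlap. The brightest, 1456772_at, read 554 and 946 in bitransgenic skin, against 360.1 and 414 in wild type skin, a log2 difference of 0.88 ± 0.35 (SE). Probe set 1451767_at read 126 and 413 in bitransgenic skin and 103 and 98.7 in wild type skin, with a difference of 1.08 ± 0.59. Probe set 1425609_at read 68.2 and 188 in bitransgenic skin and 33.3 and 48.0 in wild type skin, with a difference of 1.22 ± 0.57. Its wild type signals were both under the filter signal of 57.0, so it was kept through its bitransgenic arrays. Its difference thus varied with the constant added before the log. Adding 1 instead of 16 raised it to 1.48, while adding 64 lowered it to 0.805. In all 3 probe sets of Ncf1 the bitransgenic replicate 2 array was highest of the 4. Within replicate numbers 1 and 2 the differences were 0.60 and 1.16 for 1456772_at, 0.25 and 1.90 for 1451767_at, and 0.77 and 1.67 for 1425609_at. For 1451767_at, bitransgenic replicate 1 lay close to the wild type arrays, and the difference was 0.28 without bitransgenic replicate 2 and 1.88 without bitransgenic replicate 1.

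**Figure D3:**
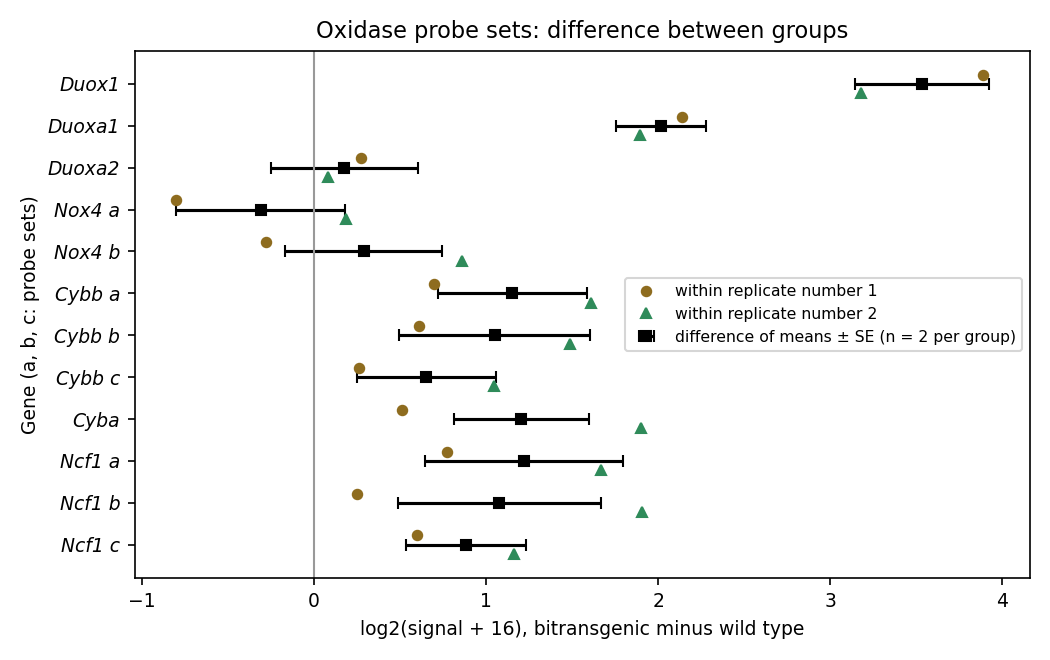
Difference in log2(signal + 16), bitransgenic minus wild type, for each oxidase probe set, as the difference of means with its SE (black squares, n = 2 per group) and within replicate number 1 (circles) and 2 (triangles). Duox1 is highest at 3.53, and Cyba runs from 0.51 within replicate number 1 to 1.90 within replicate number 2.

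In all, 9 of 12 oxidase probe sets were higher in bitransgenic skin with no overlap between the groups, none was lower without overlap and 3 overlapped. Over all probe sets 20.6% were higher without overlap and 19.3% lower. A log2 difference of 1 or more was seen in 7 of the 12, against 4.41% of all probe sets. Of the 6 member genes tested (Duoxa2 was too dim), limma's calls at an adjusted p under 0.05 held Duox1 and Duoxa1 as higher and no member as lower, where 0.75% of all genes tested were higher and 1.58% lower. These calls depended on the arrays and on the probe sets fitted. Without bitransgenic replicate 1 neither was called (adjusted p = 0.0526 for Duox1 and 0.0970 for Duoxa1, limma), and without bitransgenic replicate 2 Duoxa1 was not (adjusted p = 0.0931). In the limma fit of all 45037 probe sets the adjusted p was 0.0461 for Duox1 and 0.0621 for Duoxa1, so 1 of the 12 oxidase probe sets was called there. The members were listed in view of this comparison, so nothing is read from these counts.

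Cybb and Ncf1 are transcribed mainly in phagocytes, and markers of those cells were set beside them. All 14 monocyte and macrophage markers were tested and had a higher mean in bitransgenic skin, 11 of them with no overlap, where 23.9% of all genes tested were higher and 24.9% lower with no overlap. None passed limma's threshold, and 8 had an unadjusted p under 0.05, all higher, a threshold that 6.91% of all genes tested passed as higher. Their median log2 difference was 0.97, against 0.01 over all genes tested. Lyz2, the lysozyme of macrophages, read 8175 and 13098 in bitransgenic skin, against 4657 and 3460.4 in wild type skin (log2 difference 1.36 ± 0.31, adjusted p = 0.0905, limma). Itgam, an integrin of myeloid cells, had a difference of 1.40 ± 0.39, and Adgre1, the F4/80 antigen, 0.43 ± 0.30. The wild type mean of Itgam, 52.25, lay below the filter signal of 57.0, so Itgam entered the test through its bitransgenic arrays. The summed signal of the 14 markers was 27303 and 36783 in bitransgenic skin, against 21420.0 and 12434 in wild type skin, and none was at 0. The differences of Cyba, Cybb and Ncf1 at their brightest probe sets, 1.21, 1.05 and 0.88, lay inside the range of these markers. Of 10 neutrophil markers only Ngp, Csf3r and Mmp9 were tested, 5 were too dim and 2 had no probe set. None was called, and 2 had an unadjusted p under 0.05 (the share over all genes being 6.91% higher and 9.76% lower). Csf3r, 1 of these 2, read 133 and 120 in bitransgenic skin, against 31.8 and 17.2 in wild type skin. Both wild type signals lay below the filter signal of 57.0. Csf3r thus entered the test through its bitransgenic arrays, and nothing is read from its count. The summed signal of the 3 tested markers was 692 and 718 in bitransgenic skin, against 335 and 178 in wild type skin. The part of phagocytes in the signals of Cyba, Cybb and Ncf1 was not tested.

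Duox1 and Duoxa1 were set beside keratinocyte markers. Of 11 tested markers of differentiated keratinocytes, Flg (filaggrin) and Casp14, a protease that processes it, rose in limma's fit and none fell, with a list median of 0.03. Flg had a log2 difference of 2.13 ± 0.25 (adjusted p = 0.0156) and Casp14 one of 2.31 ± 0.28 (adjusted p = 0.0166). Neither was called when bitransgenic replicate 1 (adjusted p = 0.115 for Flg and 0.112 for Casp14, limma) or bitransgenic replicate 2 (0.0540 and 0.0668) was left out. Among those not called, the suprabasal keratin Krt1 had a difference of 1.58 ± 0.40 (adjusted p = 0.111, limma), Ivl (involucrin) one of 1.35 ± 0.57 and Krtdap one of 0.69 ± 0.32, each with both bitransgenic arrays above both wild type arrays. Krt10, the partner keratin of Krt1, had a difference of -0.27 with overlapping groups. Lor (loricrin), of the granular layer, had one of -1.15 ± 0.43, Dsg1a -0.68 ± 0.27, Cdsn -0.61 ± 0.22 and Dsc1 -0.38 ± 0.26. Both bitransgenic arrays lay below both wild type arrays for each of these 4. Of the 11 markers, 5 were higher and 4 lower with no overlap, against 23.9% and 24.9% of all genes tested. At an unadjusted p under 0.05, 3 of the 11 were higher and 3 lower, against 6.91% and 9.76% of all genes tested. The summed signal was 114287 and 147935 in bitransgenic skin, against 122252 and 110894 in wild type skin, so it overlapped between the groups although its markers differed in both directions, and no tested marker was at 0. Of 6 basal keratinocyte markers none was called and none had an unadjusted p under 0.05, with a median of 0.03 and overlapping sums of 54078 and 81966 in bitransgenic and 58345 and 67374 in wild type skin. The part of keratinocyte number or state in the Duox1 and Duoxa1 signals was not tested.

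**Figure D4:**
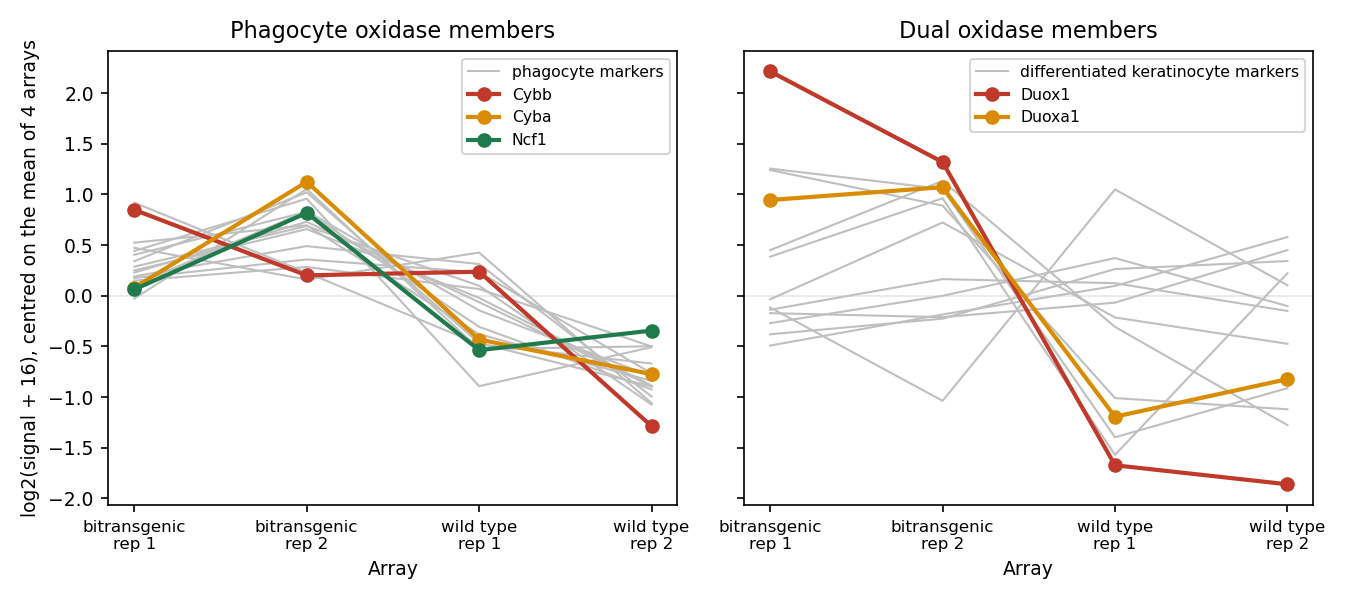
Values of log2(signal + 16) on each array, centred on the mean of the 4 arrays, for Cybb, Cyba and Ncf1 over 14 phagocyte markers in grey (left) and for Duox1 and Duoxa1 over 11 differentiated keratinocyte markers in grey (right). Most phagocyte markers are lowest on wild type replicate 2, as Cybb and Cyba are, while the keratinocyte markers spread to both sides.

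Genes with the most similar profile over the 4 arrays were found by the Euclidean distance between centred log2 values. For Duox1 they were Gzmb (granzyme B, distance 0.397), Clec4d (a C-type lectin, 0.401) and Serpinb6c (a serpin, 0.680). Gzmb read 507 and 274 in bitransgenic skin, against 12.6 and 7.10 in wild type skin, so it shares with Duox1 the higher bitransgenic replicate 1. The wild type signals of Gzmb and of Clec4d (18.5 and 10.4) lay below the filter signal of 57.0. Both genes thus passed the filter through their bitransgenic arrays. Their wild type signals were near the 16 added before the log, so their distances depend on that setting. For Duoxa1 they were Icos (a T cell costimulator, 0.238), the phosphate transporter gene Slc20a1 (0.239) and the carbonic anhydrase gene Car13 (0.244). Slc20a1 read 3152 and 3977 in bitransgenic skin, against 843 and 909 in wild type skin. Those of Cyba were Psmb9 (an immunoproteasome subunit, 0.214), Ptges (a prostaglandin E synthase, 0.222) and Ncf4 (p40phox of the phagocyte oxidase, 0.230). Cybb was closest to Ocel1 (0.159), Rnf225 (0.228) and the collagenase gene Mmp13 (0.280). Ncf1 was closest to Elmo1 (0.0942), which acts in engulfment, the myeloid kinase gene Fgr (0.0979) and Ly96 (0.105), the partner of TLR4. Nox4 was closest to Esyt1 (0.0273), Egr4 (0.0506) and Snx10 (0.0763). With 4 arrays, many genes have similar profiles, and these are descriptions.

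Of 20 tested genes of other oxidase subunits, activators and partners, none passed limma's threshold. At an unadjusted p under 0.05, 4 were higher and 1 was lower, against 6.91% and 9.76% of all genes tested, and the list median was 0.22. The 3 with the smallest p were Arhgdib, Prkcd and Rac2. Arhgdib, a GDP dissociation inhibitor of small GTPases in blood cells, read 4132 and 5202 in bitransgenic skin, against 2146 and 1581 in wild type skin (log2 difference 1.32 ± 0.27, adjusted p = 0.0664). Its adjusted p ran from 0.0319, without wild type replicate 1, to 0.290, without bitransgenic replicate 2, and was under 0.05 in 1 of the 4 fits that left out an array. Rac2, the GTPase that completes the phagocyte oxidase, read 411 and 627 in bitransgenic skin, against 209 and 218 in wild type skin (1.19 ± 0.34, adjusted p = 0.140). Prkcd, a protein kinase C that can phosphorylate p47phox, read 2384 and 3106 in bitransgenic skin and 1441 on both wild type arrays (0.91 ± 0.25, adjusted p = 0.131). The groups did not overlap for any of these 3. Noxo1, the organiser of Nox1, had a difference of -0.39 ± 0.36, and the widely expressed Rac1 one of 0.26 ± 0.37.

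Genes that make, pass, use or remove hydrogen peroxide gave no call either. Of 24 tested with limma, 0 passed, 5 were higher and 3 lower at an unadjusted p under 0.05 (6.91% and 9.76% over all genes tested), and the median was 0.01. Txnrd3, a thioredoxin-glutathione reductase, read 1508 and 1925 in bitransgenic skin, against 753 and 478 in wild type skin (1.48 ± 0.32, adjusted p = 0.0766). Leaving out wild type replicate 1 gave an adjusted p of 0.0210, and leaving out any other single array gave one between 0.0641 and 0.326. Gpx4, which reduces lipid peroxides, read 13420 and 11452 in bitransgenic skin, against 6314 and 7032 in wild type skin (0.89 ± 0.23, adjusted p = 0.119). Aqp9, an aquaglyceroporin that passes hydrogen peroxide, read 1025 and 1248 in bitransgenic skin, against 534 and 589 in wild type skin (0.99 ± 0.27, adjusted p = 0.128). Gpx3, a secreted glutathione peroxidase, had a difference of -1.08 ± 0.40 and lay lower on both bitransgenic arrays. Catalase (Cat) had a difference of -0.09 ± 0.41 and Sod1 0.18 ± 0.38, with overlapping groups. The peroxidase partners of the dual oxidases were little represented, with Mpo (0.95 ± 0.35) and Pxdn (-0.59 ± 0.24) tested.

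Among 17 tested genes of signals known to raise these oxidases, Tgfb2 fell and none rose. Tgfb2, a ligand of the family known to induce Nox4, read 57.8 and 74.6 in bitransgenic skin, against 393 and 335 in wild type skin. The groups were far apart, and the log2 difference was -2.21 ± 0.34 (SE, adjusted p = 0.0323, limma). Its adjusted p was 0.181 without bitransgenic replicate 1 and 0.105 without bitransgenic replicate 2. At an unadjusted p under 0.05, 3 of the 17 were higher and 1 lower, against 6.91% and 9.76% of all genes tested, and the median was 0.28. Tnfrsf1a, a receptor of tumour necrosis factor, read 4088 and 4100.3 in bitransgenic skin, against 2463 and 2408 in wild type skin (0.75 ± 0.22, adjusted p = 0.153). Irf8, a myeloid factor that acts on the Cybb gene, read 413 and 467 in bitransgenic skin, against 262 and 201 in wild type skin (0.89 ± 0.31, adjusted p = 0.224). Il4ra, the receptor chain shared by interleukins 4 and 13, which raise DUOX1 in human airway epithelium, had a difference of 0.90 ± 0.33 (adjusted p = 0.238) and was higher on both bitransgenic arrays.

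**Figure D5:**
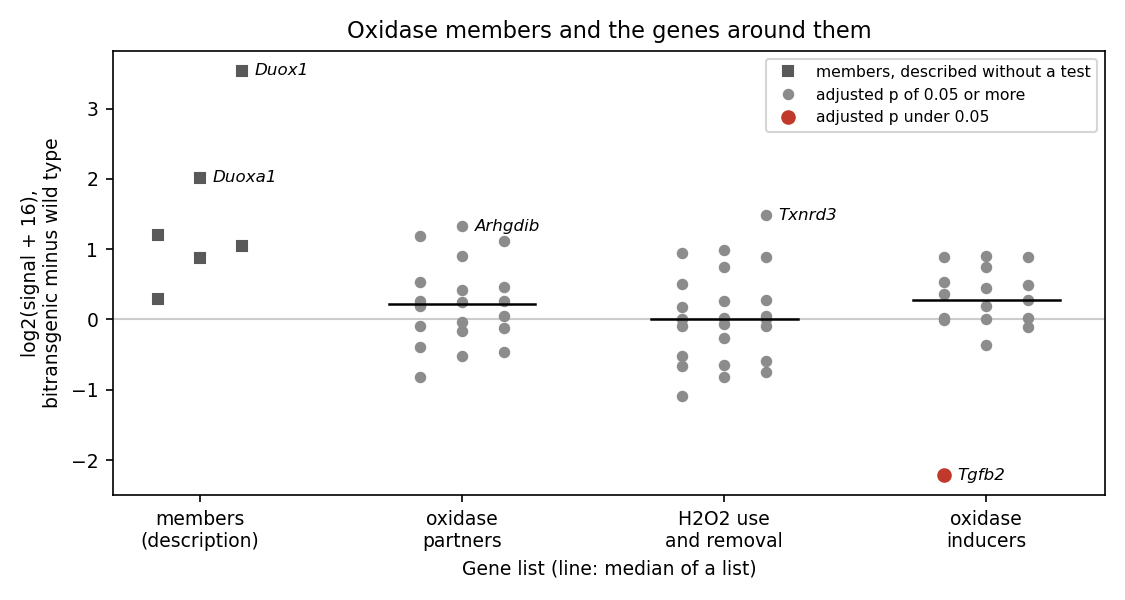
Differences in log2(signal + 16), bitransgenic minus wild type, for the 6 member genes tested (squares, a description) and for 3 lists of genes around them, with a line at each list's median. Tgfb2 at -2.21 is the only gene of the 3 lists with an adjusted p under 0.05, while Arhgdib at 1.32 and Txnrd3 at 1.48 have the highest differences of their lists.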

How the data were processed

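The authors deposited 1 table of probe set signals, that is intensity on a linear scale. MAS5 and affy are named per the submitters' processing notes, with versions and roles not given in the sources used here. The mean of each deposited array, trimmed by 2% at each end, was close to 500, which shows scaling to one mean, so a change in total RNA would not be seen. Signals were transformed as log2(signal + 16). Probe sets with a mean at or above the 40th percentile (6.19 on the log2 scale) were kept, 27022 in all, and the one with the highest mean stood for a gene, which gave 13070 genes. Low signals were handled by this filter, since the table holds no detection calls.

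The group comparison used limma 3.58.1 under R 4.3.3 (linear fits moderated with an intensity trend, 2 residual and 4.45 prior degrees of freedom), with Benjamini-Hochberg adjustment. Standard errors of members come from a fit of all 45037 probe sets. The number of arrays limits the precision. Data were simulated 10 times for this comparison over 13070 genes, with 200 of them altered in each draw. The share of altered genes recovered was 0.746% at a log2 change of 1, 35.2% at 2 and 95.2% at 4. These shares hold for that number of altered genes, and the number altered in the real arrays is not known. Members and lists were chosen with earlier results of these data known. Genes named are the members, all calls and the 3 smallest p of each of 3 lists of related genes, and the 3 nearest profiles of each tested member. Flanking genes, markers and Ncf4, Noxo1, Rac1, Gpx3, Cat, Sod1, Mpo, Pxdn and Il4ra were named outside that rule, after their values were seen. Alternatives were the pseudocount, the filter, scaling, the probe set rule, a replicate block and leaving out each array.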

Additional observations from a re-analysis of the deposited data

How the results depend on the processing

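Duox1 and Duoxa1 were higher in bitransgenic skin under each of 10 alternatives, with log2 differences from 3.09 to 3.98 and from 1.83 to 2.20. The members were listed with this comparison known, so the member counts that follow are a description and nothing is read from them. With all arrays, 0.75% of all genes tested were called higher. Member genes called higher numbered 2 with all arrays and under each alternative that kept all 4, and from 0 to 2 without single arrays, with 0 without bitransgenic replicate 1 and 1, Duox1, without bitransgenic replicate 2. Oxidase probe sets with a log2 difference of 1 or more numbered 7, against 3 with a pseudocount of 64, from 4 to 7 without single arrays, and 2 and 9 within replicate numbers 1 and 2, a split chosen after seeing the data. The 98 higher and 206 lower genes became 52 and 132 with no filter, and ranged from 22 to 314 and from 96 to 635 without single arrays. The labels pair no samples by replicate number, and the main fit holds no term for it. The deviations of the replicate 1 arrays from their group means were nevertheless positively correlated between the groups (0.336 over 27022 probe sets). With replicate number as a block, 207 genes were higher and 438 lower in limma's fit, and 1 oxidase partner, Arhgdib, was called (adjusted p = 0.0426). Without single arrays, from 0 to 1 oxidase partners and from 0 to 1 hydrogen peroxide genes were called higher and from 0 to 1 inducers lower. Tgfb2 was not called with no filter (adjusted p = 0.0599) or with the mean of a gene's probe sets (-2.13, adjusted p = 0.0947), which left 0 inducers called. The median of the oxidase partners ranged from -0.0196, without bitransgenic replicate 2, to 0.212 without other single arrays. The causes of these shifts were not tested.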

Other observations

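Other cell types of the skin piece were read by marker lists. Of 9 tested markers of the hair matrix and shaft, 4 fell in limma's fit and all 9 lay lower in bitransgenic skin with no overlap, with a median log2 difference of -4.35. Over all genes tested 1.58% fell and 24.9% were lower with no overlap. Of 6 skeletal muscle markers 5 fell, against 1.58% of all genes tested, with a median of -3.07 and summed signals of 15488 and 20057 in bitransgenic skin, against 160164 and 68079 in wild type skin. The hair markers that fell numbered 9 without wild type replicate 1 and 8 in the fit blocked on replicate number, and the muscle markers that fell numbered 1 without bitransgenic replicate 1, 2 without bitransgenic replicate 2, 2 with the mean of a gene's probe sets and 0 with no filter. Of 6 T cell markers none was called, 0 had an unadjusted p under 0.05 and the median was 0.04. Of 5 Langerhans cell and antigen presentation markers none was called and 1 had an unadjusted p under 0.05, where 6.91% of all genes tested were higher and 9.76% lower. That gene, H2-Eb1, read 215 and 360 in bitransgenic skin, against 2242 and 1002 in wild type skin, while H2-Aa, of the same class II family, read 6373 and 13323 in bitransgenic skin, against 5766 and 3895 in wild type skin. The Langerhans cell marker Cd207 read 433 and 900 in bitransgenic skin, against 980 and 482 in wild type skin, with overlapping groups.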
